A study of Mus musculus with 4 samples.

Results

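Proliferating CD8 T cells were a class of their own in the B16 tumour. The class named CD8 T cells-Prolif in the authors' cell table held 527 of the 6773 B16 cells, which is 7.78% (7.15 to 8.44), and every one was matched to its column of counts. A further 594 cells were named CD8 T cells, so that 47.0% of the 1121 cells in both classes were in the proliferating one. B16 is a transplantable melanoma line of the C57BL/6 background. The cells came from subcutaneous B16 tumours of C57BL/6J mice, pooled from 3 mice into 1 library on the 10x Genomics platform, and the labels give no treatment. A second tumour model of the study, LLC (Lewis lung carcinoma) in F11r fl/fl LysM-Cre- mice, also a pool of 3, served here only for a check of shared cell barcodes and for 1 count of cells. Bracketed ranges after a value are 95% exact intervals, which reflect counting error alone. With 1 library there is no replicate and no test, and because the authors' classes were made from the RNA of these same cells, differences between the classes are a description of the classes.

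CD8 T cells are the cytotoxic arm of adaptive immunity: they recognise peptide on MHC class I and kill the target cell with perforin and granzymes. When stimulated they divide fast, copying their DNA in S phase and separating the chromosomes in mitosis (M phase) after a gap called G2. S phase genes are typically driven by E2F factors, and G2/M genes by the MYBL2 and FOXM1 factors through the MuvB complex. In tumours, persistently stimulated CD8 T cells can become exhausted, a state with inhibitory receptors such as PD-1 and the factor TOX, and cells within this state can still divide.

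Depth differed between the classes. Members had a median of 17770 unique molecular identifiers (UMIs, 1 per captured RNA molecule) per cell, with a range of 1341 to 55202, against 9614.5 (790 to 37756) in CD8 T cells, a ratio of medians of 1.85. The median number of genes detected was 3853 per member and 2624 per CD8 T cell. Levels are therefore given as CPM, the summed UMIs of a gene over the 10454475 UMIs of the members or the 6348571 UMIs of the CD8 T cells, scaled to 1e+06. A gene lower in CPM can still have more UMIs per cell, so a gene printed as lower in CPM alone may be higher per cell; UMIs per cell are added for some of the main genes. Mitochondrial genes took 3.11% of UMIs in members and 3.22% in CD8 T cells, and ribosomal protein genes 28.6% and 31.1% in the same order. The LLC and B16 libraries shared 29 barcodes, of which 0 belonged to members. In a score against simulated doublets (2 cells in 1 droplet), 7.97% of members and 6.06% of CD8 T cells were among the 6% of B16 cells with the highest values.

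The label was checked against its markers. Mki67, which encodes the proliferation antigen Ki-67, had a UMI in 85.6% of members (82.3 to 88.5) and in 16.5% of CD8 T cells (13.6 to 19.7), 16.6-fold higher in CPM (13.9 to 19.9). Top2a, the DNA topoisomerase that untangles replicated chromosomes, had a UMI in 90.1% of members and 38% of CD8 T cells, at 653 and 64.9 CPM. Only 18 members had neither, and 277 CD8 T cells (46.6%) had at least 1 of the pair, so the classes overlap in these markers. For background, Mki67 had a UMI in 4.22% of naive T cells and 5.17% of NK cells, at median depths of 3677 and 3973 UMIs. With every cell thinned to 3000 UMIs, the shares with Mki67 were 50.4% of members and 6.02% of CD8 T cells.

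Cd8a, the alpha chain of the CD8 coreceptor, had a UMI in 92.6% of members and 98.3% of CD8 T cells, against 3.69% of NK cells, 2.02% of B cells and 12.7% of the deeply sequenced proliferating macrophages (median 20937 UMIs). Its level was 575 CPM in members and 860 CPM in CD8 T cells, while its UMIs per cell were 11.4 in members and 9.19 in CD8 T cells. Cd8b1, the beta chain, had the same pattern, with 548 and 849 CPM but 10.9 and 9.07 UMIs per cell.

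In a small set of members CD8 RNA was not detected. No UMI of Cd8a or Cd8b1 was found in 35 members (6.64%, 4.67 to 9.12), against 8 CD8 T cells (1.35%). The 35 had a median of 13331 UMIs, against 18165.5 in the other 492 members, and 33 of them had an Mki67 UMI. Foxp3, which encodes the defining factor of regulatory T cells, had a UMI in 25 of the 35 (71.4%), against 34 of the 492 (6.91%). A further 6 of the 35 had UMIs of both Ncr1, an activating NK cell receptor, and Klrb1c, the NK1.1 antigen. The remaining 4 had no UMI of Foxp3, Cd4, Ncr1 or Klrb1c. The proliferating class as annotated thus held cells with regulatory T cell or NK cell markers beside its CD8 T cells. Over all members Foxp3 was found in 11.2% (8.63 to 14.2), against 5.22% of CD8 T cells, 5.28% of proliferating macrophages, 1.48% of NK cells and 76.7% of regulatory T cells (median 4505 UMIs). With cells thinned to 3000 UMIs the shares were 5.32% of members, 2.24% of CD8 T cells, 1.26% of proliferating macrophages and 60.3% of regulatory T cells. Several results that these cells could touch are given below also for the 492 members and 586 CD8 T cells with a Cd8a or Cd8b1 UMI.

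Across 10773 genes with at least 20 UMIs over both classes, 1353 (12.6%) were at least 1.5-fold higher in members with an interval leaving out 1, and 776 (7.2%) were as far lower. These calls are a rule of size and counting error. Cycle genes were set apart as the 278 genes of 13 cell cycle lists in the table, plus 1174 genes that were higher by the same rule in the proliferating macrophages of B16 (322 cells) than in its other macrophages (2027 cells). Of the 1392 measured cycle genes 836 (60.1%) were higher in members and 35 (2.51%) lower. Of the 9381 other genes 517 (5.51%) were higher and 741 (7.9%) lower. Cycle genes as a whole took 10.7% of the UMIs of members and 6.45% of those of CD8 T cells.

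Lists of mitotic genes had the highest medians among the 13 cycle lists. In a list of G2 and M phase genes 53 of 54 measured genes were higher in members and 0 lower, with a median log2 ratio of 3.98, against 0.0006 over all measured genes. Nusap1, a microtubule-binding protein of the spindle, stood at 178 CPM in members and 2.05 CPM in CD8 T cells, 87.0-fold higher (50.8 to 164). It had a UMI in 65.8% of members and in 2.19% of CD8 T cells. Hmmr, which helps to organise spindle poles, reached 121.5 against 2.05 CPM. Aspm, a spindle pole protein, was 63.0-fold higher, Dlgap5, a kinetochore fibre protein, 26.8-fold, and Knl1, a scaffold of the kinetochore, 53.2-fold. All 33 spindle and cytokinesis genes measured and all 27 kinetochore and checkpoint genes were higher, with medians of 4.25 and 3.94.

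The regulators of mitosis had the same direction. Ccna2, cyclin A2, which acts in S phase and at mitotic entry, was 46.3-fold higher in members (29.6 to 77.2), at 139 against 2.99 CPM. Ccnb1, a mitotic cyclin, was 19.3-fold higher and its kinase Cdk1 16.8-fold. Plk1, a kinase of mitotic entry, was 46.1-fold higher and Aurkb, the kinase of the chromosomal passenger complex, 26.4-fold. Cdc20, an activator of the anaphase promoting complex, was 36.8-fold higher, and Ube2c, a ubiquitin-conjugating enzyme of that complex, 13.3-fold. Foxm1, the factor that activates many of these genes, had 26.2 CPM in members and 1.1 CPM in CD8 T cells. Mybl2, its partner in the MuvB complex, rested on 1 UMI in CD8 T cells, so that its ratio of 138 has an interval of 24.6 to 5492. Not all cyclins followed. Ccnd2, a G1 cyclin induced by growth signals, was at 123 CPM in members and 174 CPM in CD8 T cells, and its kinase Cdk4 at 184 and 100.2 CPM. Of 20 cyclins and CDKs measured 17 were higher and 0 lower.

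Genes of DNA replication were higher by smaller factors. In the S phase list 40 of 43 genes were higher and 0 lower, with a median log2 ratio of 1.44, and among 33 genes of origin licensing and the replication fork 32 were higher (median 1.62). Mcm5, a subunit of the replicative helicase, was at 149 CPM in members and 55.6 CPM in CD8 T cells. Pcna, the sliding clamp of DNA polymerase, was at 143 and 69.6 CPM, and Pclaf, a PCNA-associated factor, at 660 and 36.7 CPM. Nucleotide synthesis was higher in 22 of 23 genes, led by Rrm2, the regulated subunit of ribonucleotide reductase, at 186 against 8.03 CPM. Histones were higher in 21 of 22 genes, led by replication-dependent ones such as Hist1h1b, a linker histone, at 797.5 against 29.1 CPM. Esco2, which acetylates cohesin during S phase, was 95.3-fold higher (37.1 to 351) on 4 UMIs in CD8 T cells. Condensin, cohesin and topoisomerase genes were higher in 15 of 16, DNA repair genes in 22 of 25, E2F and MYB factors in 10 of 12 and anaphase promoting complex genes in 10 of 12, with 0 lower in each of these lists.

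The brakes of the cycle were mixed: of 16 CDK inhibitors and pocket proteins measured 4 were higher, 3 lower and 9 between. Btg1, an antiproliferative factor of resting lymphocytes, was at 387 CPM in members and 644 CPM in CD8 T cells, 1.66-fold lower (1.59 to 1.74). Cdkn2d, an inhibitor of CDK4 and CDK6, was 2.28-fold higher and Rbl1, the pocket protein p107, 2.35-fold.

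**Figure D1:**
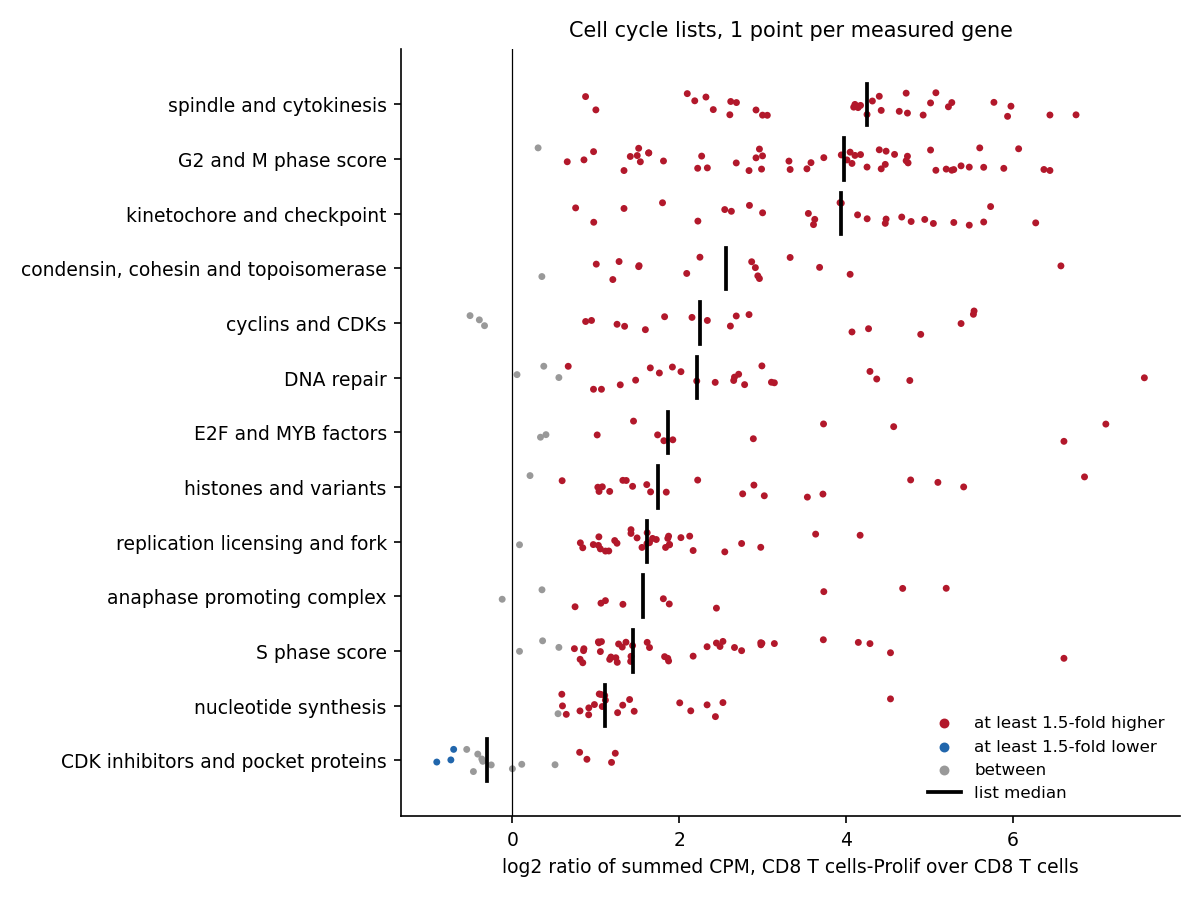
Each point is a measured gene of a cell cycle list, placed by its log2 ratio of summed CPM in CD8 T cells-Prolif over CD8 T cells, with list medians as bars and colour for higher, lower or between. Spindle, kinetochore and G2/M lists have medians near 4, the S phase list lies at 1.44, and CDK inhibitors spread to both sides of 0.

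The promoter letters of the G2/M and S genes are shown because these gene groups moved together and their known regulators read different words. The windows run from 250 bases before to 50 bases after each RefSeq start on GRCm38.p6, and the genes printed are the first 2 of each list, ranked by the lower bound of the ratio among genes of at least 50 CPM, whose window holds the word in question. Capitals mark the CHR element of G2/M genes (TTTGAA or TTCGAA), the CCAAT box, and the E2F word (TTTCCCGC, TTTGGCGC or TTTCGCGC), each searched on both strands, with 0 overlaps among the 14 matches. Hmmr lies at chr11:40733388-40733687 and Cenpf, a kinetochore protein, at chr1:189688037-189688336, both on the minus strand. Clspn, the claspin of the replication checkpoint, lies at chr4:126556730-126557029 on the plus strand, and Pola1, the catalytic subunit of DNA polymerase alpha, at chrX:93632106-93632405 on the minus strand.
Hmmr: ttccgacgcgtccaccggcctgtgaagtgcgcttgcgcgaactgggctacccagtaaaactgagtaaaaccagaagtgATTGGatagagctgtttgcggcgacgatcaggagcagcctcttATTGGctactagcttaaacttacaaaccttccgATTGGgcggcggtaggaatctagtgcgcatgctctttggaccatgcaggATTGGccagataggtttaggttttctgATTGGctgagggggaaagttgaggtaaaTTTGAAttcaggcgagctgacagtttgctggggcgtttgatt
Cenpf: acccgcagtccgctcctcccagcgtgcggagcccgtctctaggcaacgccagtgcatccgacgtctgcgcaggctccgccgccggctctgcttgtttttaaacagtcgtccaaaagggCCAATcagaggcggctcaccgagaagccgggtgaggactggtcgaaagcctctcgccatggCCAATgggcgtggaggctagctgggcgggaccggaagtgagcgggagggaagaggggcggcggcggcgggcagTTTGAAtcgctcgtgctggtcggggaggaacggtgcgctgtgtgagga
Clspn: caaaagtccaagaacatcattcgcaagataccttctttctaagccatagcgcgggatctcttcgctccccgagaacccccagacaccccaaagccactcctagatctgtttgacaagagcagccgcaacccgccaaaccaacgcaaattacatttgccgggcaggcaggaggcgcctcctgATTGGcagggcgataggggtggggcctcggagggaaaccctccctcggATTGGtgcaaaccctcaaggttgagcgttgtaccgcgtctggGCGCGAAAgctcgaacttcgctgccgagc
Pola1: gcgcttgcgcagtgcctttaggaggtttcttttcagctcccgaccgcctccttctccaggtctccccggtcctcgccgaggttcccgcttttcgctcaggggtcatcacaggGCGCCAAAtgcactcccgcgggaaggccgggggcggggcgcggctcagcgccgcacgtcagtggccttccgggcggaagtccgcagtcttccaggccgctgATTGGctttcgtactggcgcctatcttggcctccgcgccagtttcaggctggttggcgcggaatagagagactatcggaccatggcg

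In these windows the CHR word began 8 bases after the start in Hmmr and 2 bases after it in Cenpf, and the E2F word 21 bases after the start in Clspn and 138 before it in Pola1. Cenpf was at 228 CPM in members and 5.83 CPM in CD8 T cells, 39.2-fold higher (28.3 to 55.8), Clspn at 100.2 and 12.6 CPM (7.96-fold) and Pola1 at 53.1 and 11.8 CPM (4.49-fold). A CHR word was found in 35 of the 47 G2/M genes with a promoter in the table (74.5%), in 5 of 31 S phase genes (16.1%) and in 14.5% of the promoters of 8417 measured genes. The E2F word was found in 11 of 31 S phase genes (35.5%), in 2 of 47 G2/M genes (4.26%) and in 3.96% of measured genes. CCAAT was in 76.6% of G2/M, 71.0% of S phase and 39.8% of measured genes. Nusap1, first of the G2/M list in that ranking, has no CHR word in its window, and the first S list gene, Rrm2, has no E2F word, nor do Rad51ap1, Rrm1, Uhrf1 and Tyms, which were passed over as well. A match is a description of letters, not evidence of binding.

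Members varied widely among themselves in these genes. With each cell thinned to 3000 UMIs, which left out 1 member and 13 CD8 T cells, the UMIs of the S and G2/M lists together had a median of 42 per member (range 12 to 157) and 9 per CD8 T cell (1 to 33). The lists gave 11.5 and 30 UMIs per member in the median, against 3 and 6 UMIs per CD8 T cell. The distributions met at their edges: 46 CD8 T cells (7.92%) were at or above 19.25, the 5th percentile of the members.

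Cells with at least 2 S UMIs for each G2/M UMI were called S-leaning, those with the reverse G2/M-leaning. Of 526 members 31 (5.89%, 4.04 to 8.26) were S-leaning, 204 (38.8%) between and 291 (55.3%, 51 to 59.6) G2/M-leaning. Of 581 CD8 T cells 51 (8.78%) were S-leaning, 246 (42.3%) between and 228 (39.2%) G2/M-leaning. The other 56 had fewer than 5 UMIs of both lists together. More G2/M-leaning than S-leaning cells were thus found in both classes. The 2 lists differ in size and level, however. In CD8 T cells the 43 genes of the S list summed to 1493 CPM and the 54 of the G2/M list to 2106 CPM. The split uses raw UMIs without a correction for this, so the excess of G2/M-leaning cells is not a count of cells in each phase. Many members lay close to a boundary, 79 near the lower and 37 near the upper one (within 0.05 of the share). The 3 ranges are cuts of a continuous score and not cell types, and the S-leaning share was 2.29% with cells thinned to 5000 UMIs and 1.33% without thinning. S-leaning members had medians of 16 S and 7 G2/M UMIs, members between had 16 and 17, and G2/M-leaning members had 8 and 44. Their median depths before thinning were 15973, 17730.5 and 18556 UMIs. In proliferating macrophages 0 of 318 cells were S-leaning, which at a floor of 3 cells allows a share of up to 0.943% (exact upper bound 1.15%), and 77.7% were G2/M-leaning.

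**Figure D2:**
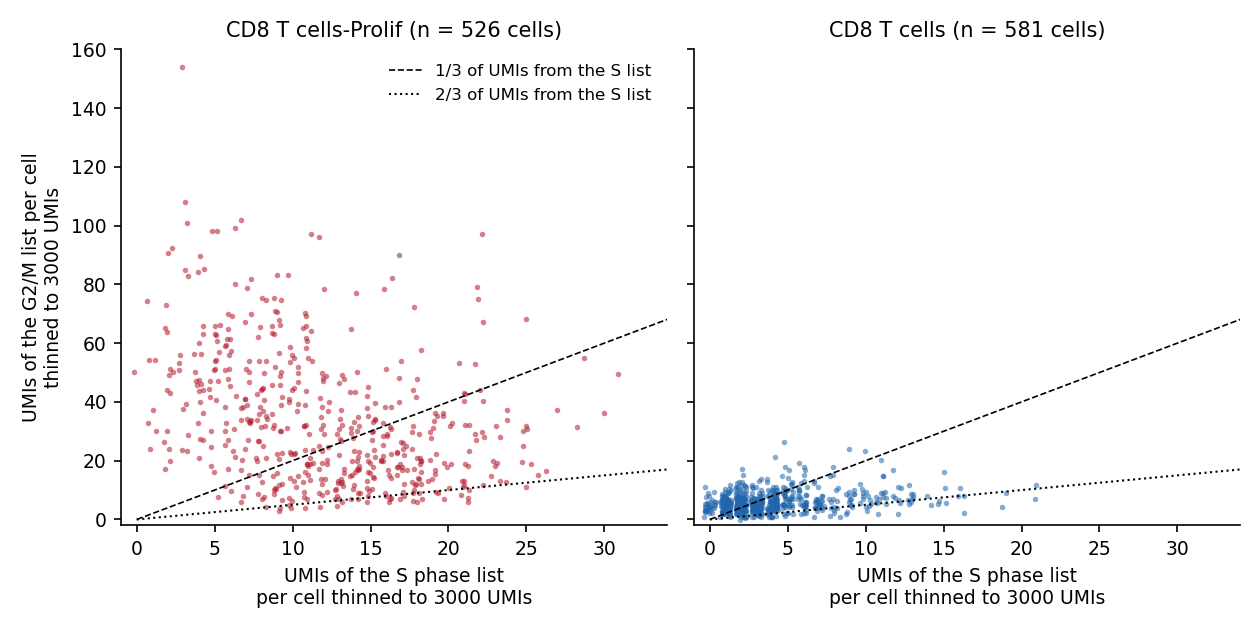
Each point is a cell thinned to 3000 UMIs, with UMIs of the S phase list across and of the G2/M list up, in panels by class, and dashed and dotted lines at the boundaries of the phase ranges. Members spread upward to 157 UMIs of both lists together, while CD8 T cells stay within 33.

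Within the members, the G2/M-leaning cells were set against the rest. Among cycle genes 240 of 1371 (17.5%) were higher in G2/M-leaning members and 136 (9.92%) lower; among other genes 378 of 8801 (4.29%) were higher and 359 (4.08%) lower. The split was made from the S and G2/M lists, so their own direction follows from it. Ccne2, a cyclin of the G1 to S transition, was at 7.79 CPM in G2/M-leaning members and 29.7 CPM in the rest. Srm, spermidine synthase, a polyamine enzyme, was at 65.2 CPM in G2/M-leaning members and 118 CPM in the rest, 1.82-fold lower, and 1.73-fold lower among members with a CD8 UMI. The inhibitory receptor gene Pdcd1 was near level, at 227 CPM in G2/M-leaning members and 238 CPM in the rest. Gzmb was at 860 and 799 CPM and Prf1 at 717.5 and 876 CPM, both within 1.5-fold. Foxp3 was 4.05-fold higher in G2/M-leaning members, and 2.36-fold among members with a CD8 UMI. Homing genes were higher in 7 of 18 there, but in 3 of 17 with CD8 UMIs required, and interferon genes in 5 of 22 but in 0 of 22, so those counts moved with the members that have no CD8 UMI.

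The cycle genes of the members were also those of dividing macrophages. Of 276 listed cycle genes measured in both cell types, 226 were higher in both, 23 in the CD8 comparison only and 6 in the macrophage comparison only. The shared genes were 90.8% of those higher in members and 97.4% of those higher in proliferating macrophages. In the macrophage comparison 1406 of 11669 genes (12%) were higher and 932 (7.99%) lower. Tuba1a, an alpha tubulin, was 2.0-fold higher in members and had a log2 ratio of -0.67 in macrophages. Over all lists 19 of 657 genes were called in opposite directions.

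**Figure D3:**
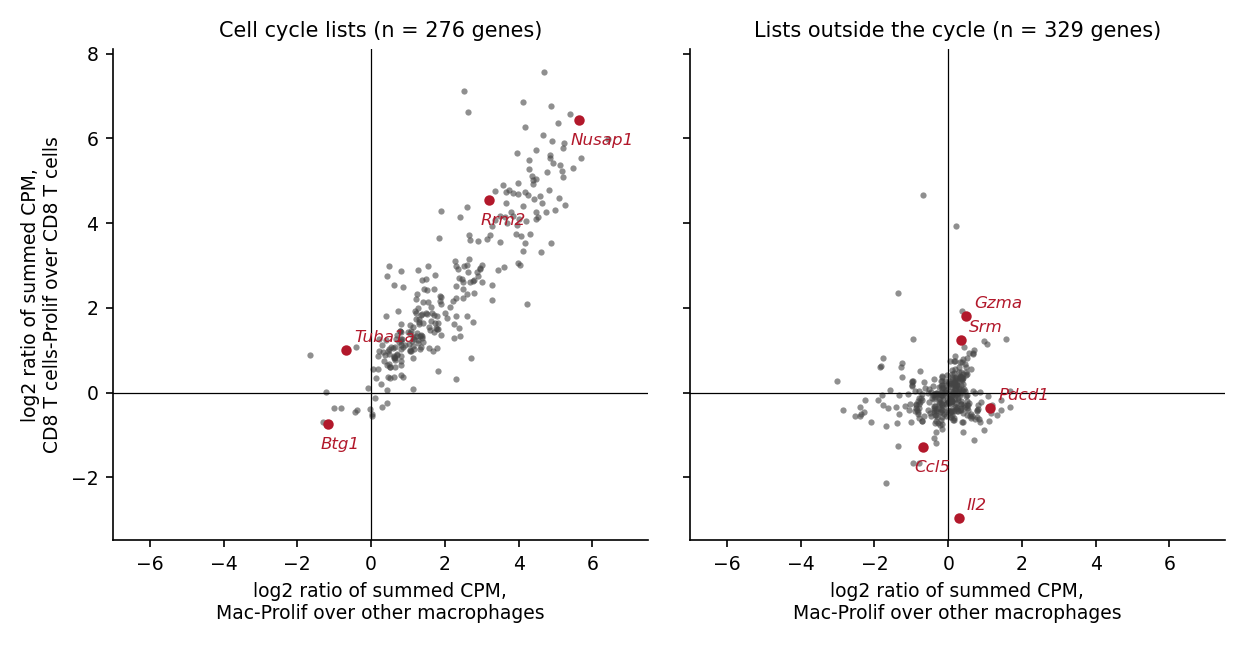
Each point is a listed gene, with its log2 ratio in Mac-Prolif over other macrophages across and in CD8 T cells-Prolif over CD8 T cells up, in panels for 276 cycle genes and 329 other listed genes. Cycle genes lie in the upper right in both cell types, while the other genes gather around 0.

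Outside the cycle lists, the members were higher in genes of nutrient uptake and MYC targets. Of 26 genes of nutrient uptake and MYC targets 14 were higher and 0 lower, with a median log2 ratio of 0.66 against -0.05 over all other genes. The 26 include 5 that also count as cycle genes through the macrophages, such as Ran, the GTPase of nuclear transport. Ncl, nucleolin, which acts in ribosome production, was at 1054 CPM in members and 552 CPM in CD8 T cells, 1.91-fold higher (1.84 to 1.98). Srm was at 88.3 and 37.5 CPM, 2.36-fold higher (2.04 to 2.73), and Nolc1, a nucleolar phosphoprotein, at 128 and 61.3 CPM. Npm1, nucleophosmin, was at 1848 and 1224 CPM, and Tfrc, the transferrin receptor for iron uptake, at 85.7 and 47.2 CPM. Myc itself differed little, at 39.3 and 40.2 CPM.

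Further genes in the ranking of other genes had varied roles. Rcc2, a regulator of chromosome condensation and Rac signalling, was 2.26-fold higher in members, Mrto4, a ribosome assembly factor, 1.97-fold and Timm8a1, a mitochondrial import chaperone, 2.18-fold. Srsf2, a splicing factor, was at 393 CPM in members and 192 CPM in CD8 T cells. Uck2, a pyrimidine salvage kinase, was at 55.4 and 26.0 CPM, and Fabp5, a fatty acid carrier, at 199 and 92.6 CPM. Tuba4a, an alpha tubulin, was 2.22-fold higher and Siva1, a proapoptotic adaptor, 2.06-fold. Energy genes moved little: 1 of 29 genes of oxidative phosphorylation was higher, Cycs or cytochrome c, at 316 and 197 CPM. Of 17 glycolysis genes 0 were higher and 1 lower, the glucose transporter Slc2a3 at 58.4 and 91.7 CPM. Proteasome genes were higher in 2 of 16 (median 0.34), and of 9 stress genes only Hsp90aa1, a chaperone, was higher, at 884 and 529 CPM.

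The genes of T cell function leaned the other way in CPM. Over 10 lists of T cell state 8 of 178 measured genes were higher in members and 34 lower, with a median log2 ratio of -0.36. Of the 178 genes 147 (82.6%) had a ratio below 1, against 55.1% of the 9381 other genes. Some of the 178, such as Cd8b1 and Pdcd1, count as cycle genes through the macrophages and are not among the 9381. Of the 34 lower genes 14 were also lower in UMIs per cell and 20 were not, so for most of these the level in CPM was lower while the number of molecules per cell was not. Among all 741 lower genes outside the cycle 337 were also lower per cell and 404 were not.

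Cytotoxic effectors had the lowest median of the 19 lists outside the cycle (-0.62), with 9 of 17 genes lower and 2 higher. Prf1, perforin, which opens the target membrane, was at 786 CPM in members and 1276 CPM in CD8 T cells (1.62-fold lower, 1.57 to 1.67), with 15.6 and 13.6 UMIs per cell. Nkg7, a granule protein, was at 2110 and 3232 CPM, with 41.9 and 34.5 UMIs per cell. Gzmb, the main granzyme of these cells, was at 833 and 1060 CPM, within 1.5-fold, with 16.5 and 11.3 UMIs per cell. Ccl5, a chemokine of effector T cells, was lower on both scales, at 1376 and 3352 CPM (2.44-fold, 2.39 to 2.49) and 27.3 and 35.8 UMIs per cell. Gzmf, a granzyme of strongly stimulated cells, was at 185 and 813 CPM, but 3 CD8 T cells held 1915 of its 5162 UMIs in that class. For Gzmg, at 1.91 and 104 CPM, 3 CD8 T cells held 623 of 660 UMIs.

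Gzma was the exception among the granzymes, at 69.1 CPM in members and 19.7 CPM in CD8 T cells, 3.51-fold higher (2.90 to 4.28). It had a UMI in 9.30% of members and 5.22% of CD8 T cells. Few members carried most of it, 3 of them 384 of its 722 UMIs. Its log2 ratio was 1.81, and 1.24 among cells with a CD8 UMI, 2.40 as a mean over cells and 2.87 with cells thinned to 3000 UMIs.

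Other cytokines were divided, with 6 of 16 lower and 1 higher. Ifng, interferon gamma, was at 622 CPM in members and 762 CPM in CD8 T cells, with 12.3 and 8.15 UMIs per cell, and Ccl4, an inflammatory chemokine, at 1600 and 2149 CPM. Ltb, lymphotoxin beta, was 1.66-fold lower. Xcl1, which attracts cross-presenting dendritic cells, was 1.67-fold higher, with 726 of its 3608 UMIs in 1 member. Il2 was 7.79-fold lower, but 1 CD8 T cell held 89 of its 104 UMIs in that class.

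Inhibitory receptors of the exhausted state were present in both classes. Pdcd1, which encodes PD-1, was at 232 CPM in members and 301 CPM in CD8 T cells, with a UMI in 88.2% and 84.8% of cells and 4.60 and 3.22 UMIs per cell. Lag3 was at 178 and 341 CPM, 1.92-fold lower (1.8 to 2.04), with 3.52 and 3.64 UMIs per cell. Havcr2, which encodes TIM-3, was at 95.6 and 139 CPM and Ctla4 at 115 and 135 CPM, both within 1.5-fold. Of 16 receptors 3 were lower and 0 higher, the other two being Vsir, which encodes the checkpoint VISTA, and Nt5e, the ecto-enzyme CD73. Of 12 costimulatory receptors 2 were lower, Cd226, an activating receptor of the nectin system, and Slamf1.

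Most transcription factors differed little: of 22 factors of exhaustion and effector function 2 were lower, Tox2 and Nr4a3, and 0 higher. The lowest log2 ratio among the 22 was -1.72. Tox, which sets up exhaustion, was at 222 CPM in members and 292 CPM in CD8 T cells, and Eomes at 60.4 and 58.9 CPM. Tcf7, which encodes the progenitor factor TCF1, was scarce in both, at 7.56 and 11 CPM, with a UMI in 4.93% and 5.39% of cells. Of 21 progenitor and memory genes 2 were higher, among them Myb, a factor of lymphocyte progenitors, and 3 lower. Bcl2, a survival protein, was at 57.7 and 131 CPM, 2.27-fold lower (2.04 to 2.53), and lower per cell too, at 1.14 and 1.40 UMIs. Ccr7, a lymph node homing receptor, was 2.42-fold lower. With CD8 UMIs required, 1 of the 21 was higher and 6 lower.

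Receptors of position and signalling had few calls. Cxcr6, a receptor that holds effector cells near CXCL16-bearing myeloid cells, was at 313 CPM in members and 683 CPM in CD8 T cells, with 6.20 and 7.30 UMIs per cell. Itgb7, an integrin chain, and Ccr2, a chemokine receptor, were each 1.52-fold higher, and with CD8 UMIs required 0 of 18 homing genes were higher. Of 20 genes of T cell receptor signalling 1 was lower, Cd8b1. Of 19 early activation genes 4 were lower and 1 higher, Egr3 at 2.39-fold, and of 24 cytokine receptors and signalling genes 4 were lower, Il12rb2 the most at 1.83-fold. Interferon response genes were lower in 2 of 22 and MHC class I genes called in 0 of 15, with medians of -0.11 and -0.05. Of 18 genes of apoptosis and p53, 2 were lower, Bcl2 and its antagonist Bcl2l11.

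Genes outside these lists were among the lowest in members. Mxd4, a MAX partner that opposes MYC, was at 24.8 CPM in members and 70.3 CPM in CD8 T cells. Txnip, an inhibitor of glucose uptake and thioredoxin, was 2.23-fold lower and Hcst, the DAP10 adaptor of NKG2D, 2.06-fold. S100a6, a calcium-binding protein, was at 938 and 1915 CPM. AA467197, which encodes a small mitochondrial protein, was 2.20-fold lower and Il1r2, the interleukin 1 decoy receptor, 2.36-fold. For Il1r2, 1 CD8 T cell held 97 of the 400 UMIs of that class, and without the highest cell of each class the ratio was 0.525. It had a UMI in 22.4% of members and 18.5% of CD8 T cells.

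**Figure D4:**
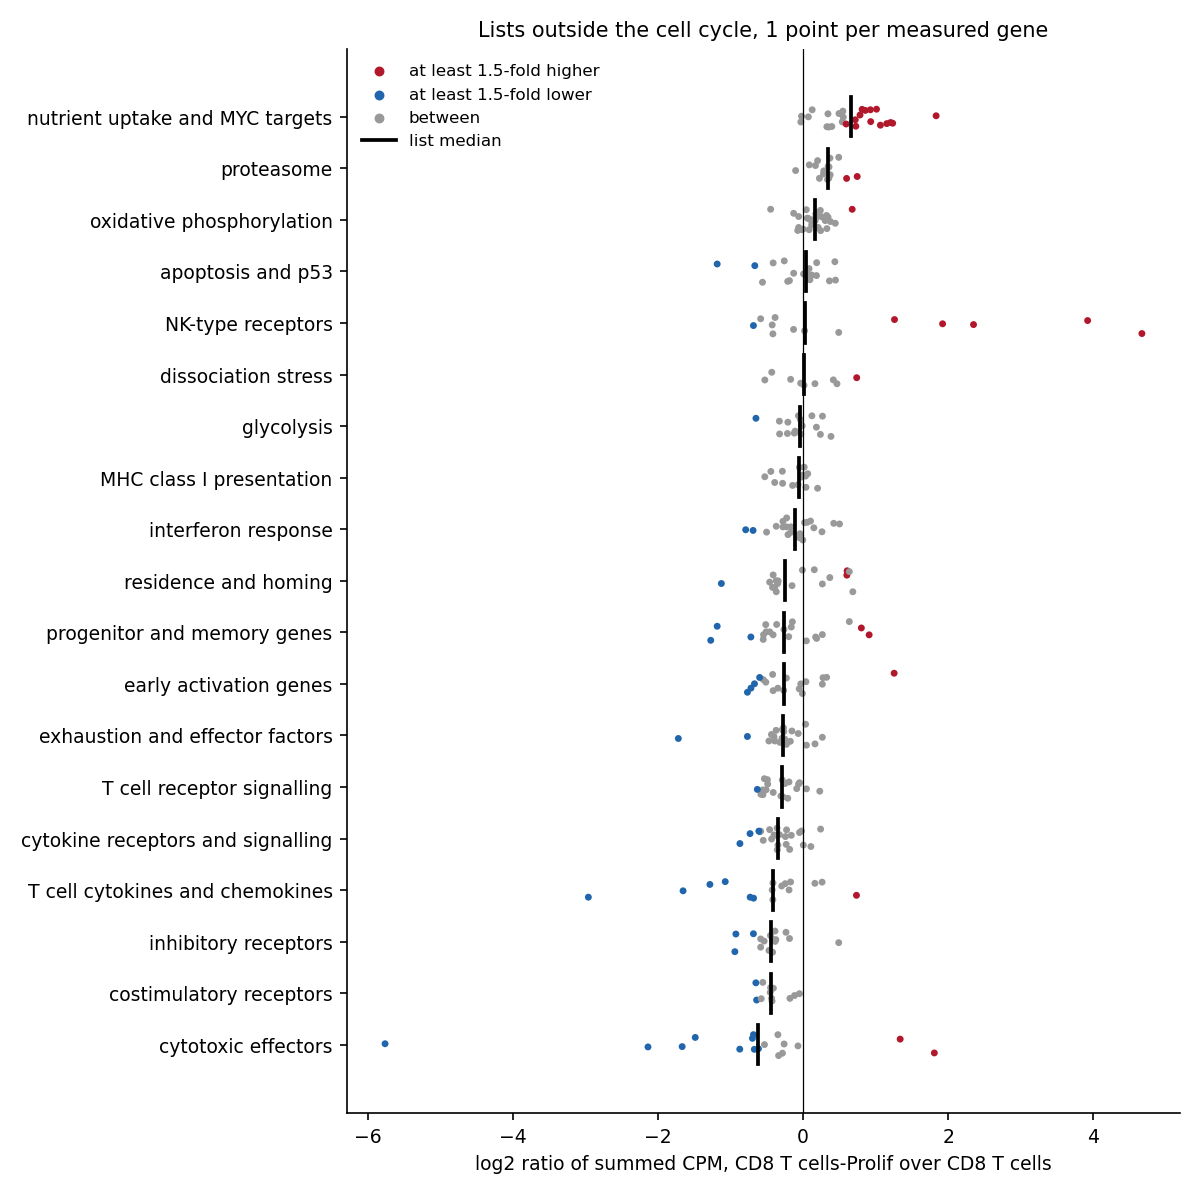
Each point is a measured gene of a list outside the cell cycle, placed by its log2 ratio of summed CPM in CD8 T cells-Prolif over CD8 T cells, with list medians as bars. The list of nutrient uptake and MYC targets lies to the right of 0 with a median of 0.66, and cytotoxic effectors to the left with a median of -0.62.

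Levels of these genes were then read along the amount of cycle RNA within each class. Members were cut at 30 and 60 UMIs of the 2 phase lists per 3000 (118, 289 and 119 cells), and CD8 T cells at 10 and 20 (305, 230 and 46 cells). Prf1 stood at 951, 775 and 655 CPM from low to high among members and at 1442, 1213 and 642 CPM among CD8 T cells. Ccl5 was at 1592, 1251 and 1509 CPM among members and at 3741, 3049 and 2202 CPM among CD8 T cells. In the CD8 T cells both genes were lower with more cycle RNA, and in members only Prf1 kept one direction over the 3 ranges. Members without a CD8 UMI gathered in the top range, with 1, 10 and 23 cells from low to high. Without them Prf1 was at 955, 789 and 770 CPM, so its last step nearly vanished, and Ccl5 at 1599, 1241 and 1684 CPM.

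Pdcd1 was level along both classes, at 229, 233 and 234 CPM among members and 318, 279 and 309 CPM among CD8 T cells. Ncl was at 1147, 1137 and 731 CPM among members and at 490, 599 and 680 CPM among CD8 T cells. Srm was at 117, 98.7 and 30.6 CPM among members and 31.6, 42.4 and 43.6 CPM among CD8 T cells. Both were thus lowest among the members in those with most cycle UMIs. Ran did not share this order, at 1119, 1299 and 1225 CPM among members and 445, 641 and 817 CPM among CD8 T cells. The median depths of the ranges were 16640.5, 19625 and 17140 UMIs for members and 9073, 10651.5 and 10768 UMIs for CD8 T cells.

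**Figure D5:**
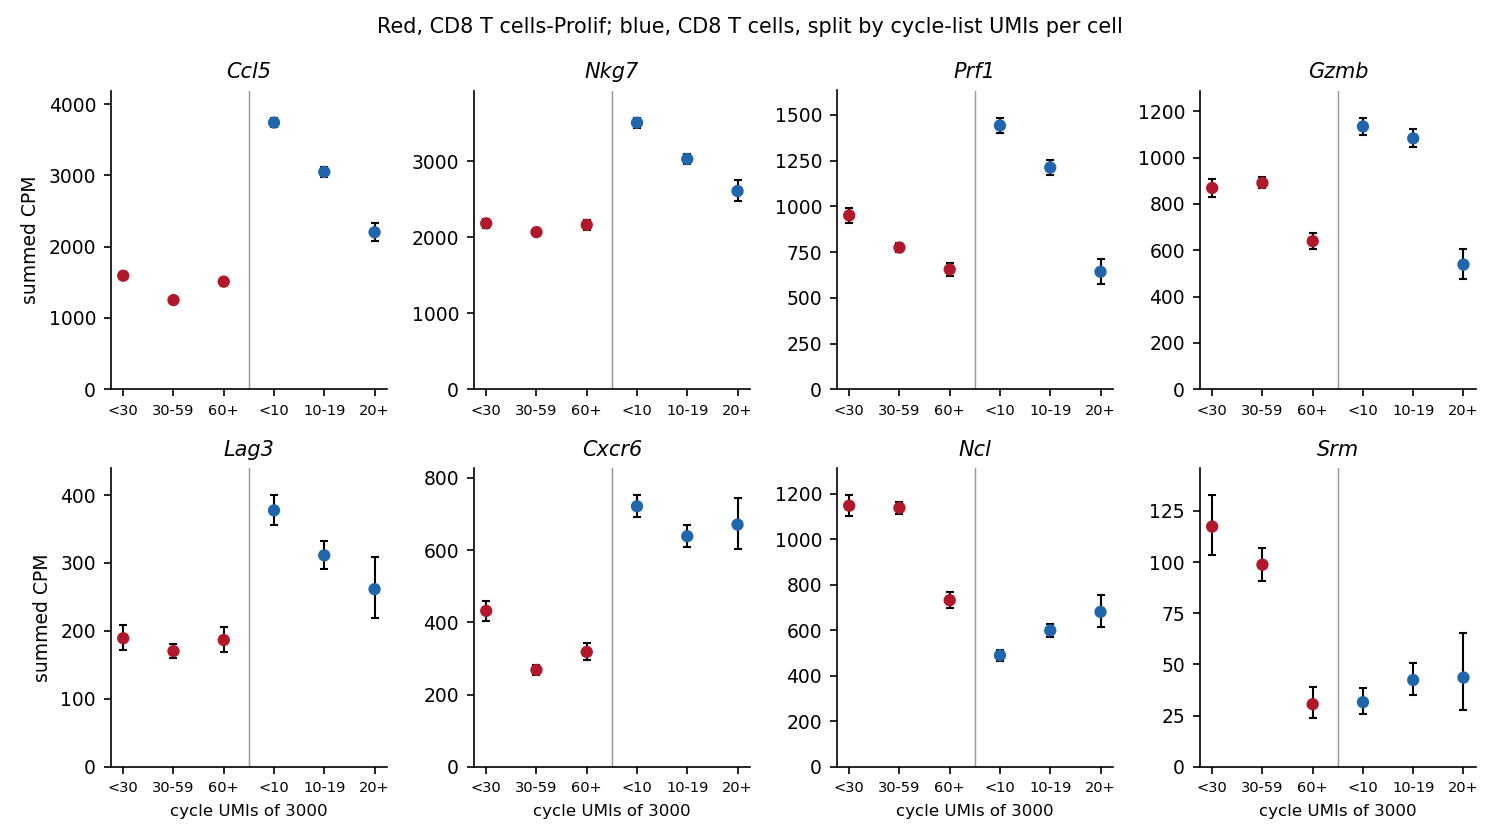
Points are summed CPM with exact intervals over all cells in 3 ranges of cycle-list UMIs per cell, low to high, for CD8 T cells-Prolif in red and CD8 T cells in blue. Prf1 is lower with more cycle RNA in both classes, and Ncl and Srm in members are lowest at 60 or more UMIs.

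A second annotation by the authors, of the LLC and B16 libraries jointly, split the members. It named 356 of them Prolif CD8 T cells (67.6%), 170 CD8 T cells (32.3%) and 1 an NK cell. The 170 were still in cycle by their RNA: 64.7% had an Mki67 UMI and 88.2% a Top2a UMI, 99.4% had one of Cd8a, and the median depth was 17416 UMIs. Of these 170 cells 30 (17.6%) were S-leaning, 130 (76.5%) between and 10 (5.88%) G2/M-leaning, against 0, 74 and 281 (79.2%) of the 355 thinned members named Prolif CD8 T cells. Thus 30 of the 31 S-leaning members were among the 170, and 281 of the 291 G2/M-leaning ones among the 356. The 356 also held 34 of the 35 members without a CD8 UMI, and the 170 held 0.

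Gene values follow the same split. Of 1371 cycle genes 73 (5.32%) were higher in the 170 and 318 (23.2%) lower than in the 356, and of 8799 other genes 357 (4.06%) were higher and 574 (6.52%) lower. Nusap1 was at 29.1 CPM in the 170 and 246 CPM in the 356, while Mcm5 was at 205 and 124 CPM. Srm was at 134 and 67.3 CPM and Ccl4 at 2187 and 1335 CPM. Cytotoxic genes were higher in 5 of 17 and lower in 1, with Gzmc, a granzyme, 1.64-fold higher. Interferon response genes were lower in the 170 in 10 of 22 and homing genes in 8 of 18, with 0 higher in either list. With CD8 UMIs required 9 of 22 and 6 of 17 were lower. Zmynd19, a zinc finger protein, was 3.32-fold higher in the 170. Cd8a was level at 578 and 574 CPM, and Foxp3 was at 6.43 and 23.4 CPM, or 6.43 and 12.1 CPM with CD8 UMIs required. Lyz2, a lysozyme of myeloid cells, was at 77.1 and 214 CPM; its part in the split was not tested.

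Markers of other cells were mostly alike in both classes, with exceptions that rest on few cells. The 8 macrophage and monocyte markers summed to 557 CPM in members and 621 CPM in CD8 T cells, with 0 called in either direction, and melanocyte markers to 15.6 and 21.9 CPM. None of the lists for CD4 and regulatory T cells (5 genes), gamma delta T cells (3) and neutrophils (4) had a gene called. NK cell markers summed to 73.9 and 61.7 CPM, with 3 of 4 higher in members, and with CD8 UMIs required 0 of the 2 still measured were higher. Of 13 NK-type receptors 5 were higher, among them Ncr1 at 7.17 and 1.89 CPM, and 1 lower, Klrd1, which encodes CD94, at 653 and 1050 CPM. Of the 75 Ncr1 UMIs in members 61 were in the 35 cells without a CD8 UMI, and with CD8 UMIs required 2 of 11 NK-type receptors were higher. Red cell and platelet markers summed to 230 and 12.8 CPM, and 1 member held 1347 of the 1390 Hbb-bs UMIs. Plasma cell markers summed to 82.0 and 13.1 CPM with 2 of 2 higher, and 1 of 2 B cell markers was higher, Cd79a at 3.92 and 1.73 CPM. Lyz2 had a UMI in 54.1% of members and 43.4% of CD8 T cells, at 171 and 163 CPM.

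Igkc, the antibody kappa chain, had a UMI in 83.9% of members, 75.8% of CD8 T cells and 83.2% of proliferating macrophages. It was at 1067 CPM in members and 175 CPM in CD8 T cells, but 1 member held 9408 of its 11150 UMIs, and without the highest cell of each class it was at 167 and 172 CPM. Jchain, the joining chain of secreted antibody, was 6.07-fold higher in members, but 1 member held 582 of its 680 UMIs, and without the highest cell of each class the ratio was 0.902. Ccl2, a monocyte chemokine, was 3.07-fold higher, with 234 of 658 UMIs in 1 member. Its log2 ratio of 1.62 turned to -0.37 without the cells of highest doublet score and to -0.48 without cells with a macrophage marker UMI. Among the 517 other genes higher in members a single cell held most of the UMIs in 19, and among the 741 lower ones in 4.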

How the data were processed

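Single-cell RNA sequencing in droplets gave 1 library of B16 tumour cells from a pool of 3 mice, per the labels. Cell Ranger and mm10 are named in the submitters' processing notes. Not given in the sources used here are their versions, cut-offs for cells and genes, dissociation, any sorting, doublet removal and the clustering. Raw UMI counts per gene and cell and a cell table with class names were used as deposited.

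Counts were summed per class and divided by the class total (CPM). Ratios have exact conditional binomial 95% intervals, shares exact Clopper-Pearson intervals. A gene was measured with at least 20 UMIs over both classes, and called at 1.5-fold with an interval leaving out 1. Cells of 1 library are not replicates, so no p-value was computed. Cells were thinned to 3000 UMIs for shares and phases. A doublet score used 50 neighbours of simulated doublets in 30 components of 2000 variable genes. The counting was tested on simulated data.

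Genes were named by a rule: the 15 cycle genes and the 15 other genes highest, and the 15 other genes lowest, by the interval bound nearest to 1 with at least 50 CPM in the higher class, up to 4 members per list in each direction, any member of the T cell state lists, and 9 fixed genes. Mitochondrial, ribosomal protein, predicted, receptor segment, haemoglobin and sex-linked genes were left out of the ranking. Genes of the splits within members, and cycle and growth genes beyond the rule such as Pcna, Mcm5 and Cdk1, were chosen for their known roles after their values were seen. The class and the 44 gene lists were chosen with earlier results of these data known. Alternatives covered scaling, thinning, means over cells, UMI minimum, fold, doublet scores, marker-positive cells and the joint annotation. The alternatives with CD8 UMIs required and without the highest cell were added after seeing the data. Promoters came from RefSeq GRCm38.p6 and were matched by symbol, 47 of 54 G2/M genes and 31 of 43 S phase genes. Python 3.11.15, numpy 2.4.6, pandas 2.3.3, scipy 1.17.1, scikit-learn 1.9.0 and matplotlib 3.10.9 were used.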

Additional observations from a re-analysis of the deposited data

Results flagged for a closer look

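Among the genes named by rank or always reported, 3 were called at 1.5-fold in both cell types with opposite directions. The difference between the proliferating and the other CD8 T cells went against that between proliferating and other macrophages. Genes with opposite signs that were not called in both, such as Pdcd1 (log2 ratios of -0.38 and 1.14), were not counted. The difference between the cell types was not tested. Fabp5, a fatty acid carrier, had a log2 ratio of 1.1 in CD8 T cells and -1.38 in macrophages. Uck2, a pyrimidine salvage kinase, had 1.09 in CD8 T cells and -0.67 in macrophages. Cd8b1, the CD8 beta chain, had -0.63 in CD8 T cells and 0.83 in macrophages. In macrophages it was scarce, at 33.5 CPM in proliferating and 18.8 CPM in other ones. It had a UMI in 12.7% of proliferating macrophages, and the T cell gene Cd3e in 15.2%. Of the proliferating macrophages 14.3% were among the B16 cells with the highest doublet scores. Whether this is RNA of the macrophages themselves was not tested.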

How the results depend on the processing

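At a fold of 2 in place of 1.5, 552 cycle genes and 162 other genes were higher (836 and 517 at 1.5), and 8 cycle genes and 245 other genes lower (35 and 741). With the mean over cells of CPM per cell 789 other genes were higher and 1001 lower. That setting was called by fold alone, without an interval, so its counts are not on the same rule as 517 and 741. With cells thinned to 3000 UMIs 462 other genes were lower, and with a minimum of 100 UMIs 471; fewer genes were measured in both. The share of S-leaning members was 5.89%, against 2.29% with cells thinned to 5000 UMIs, 1.33% without thinning and 1.14% when 3 UMIs of one list were required for each UMI of the other. With that bound the G2/M-leaning share was 43.3%, against 55.3%. Members with a Cd4 or Foxp3 UMI were 14%, 6.46% when thinned and 10.6% with at least 2 UMIs. Trbv16 was the gene found in 51.2% (35.1 to 67.1) of members with 1 of the 2 Trbv genes. The share was 21.4% (4.66 to 50.8) when thinned and 11.1% (0.281 to 48.2) with at least 2 UMIs, both on few cells with wide intervals. The log2 ratio of Jchain was 2.60, but -0.05 without the cells of highest doublet score, -0.17 without cells with a macrophage marker UMI and -0.15 without the highest cell of each class. Ccl2 had 1.62, but -0.37 without high doublet scores and -0.48 without macrophage marker cells, and Ifitm1 had -1.68 but 0.14 without high doublet scores. The cause was not tested. Of 538 values of 54 named genes under 10 alternatives 441 stayed within counting error, 91 moved beyond it and 6 are the reversals above. Only genes called in the main comparison could count as reversed, so moved values can include a change of sign in other genes. Of 352 values of list medians 333 stayed, 19 moved and 0 reversed. A list median could count as reversed only if it was at least 1.5-fold from level in the main comparison. Scaling moved all log2 ratios by 0.0006 (median of ratios) or 0.0396 (totals without cycle, mitochondrial and ribosomal protein genes). Without cells with a Cd4 or Foxp3 UMI those 2 genes have no ratio. No paired analysis was possible because there is 1 library.

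The limits are those of 1 pooled library: the mice cannot be told apart, and a difference between classes has no replicate. The depth of members was 1.85 times that of CD8 T cells, and removal of cells with a macrophage marker UMI left 159 members and 232 CD8 T cells.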

Other observations

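In the joint annotation of both tumours the class Prolif CD8 T cells held 437 of the 1224 B16 cells named CD8 T cells or Prolif CD8 T cells (35.7%, 33.0 to 38.5), and 11 of the 15 such LLC cells (73.3%, 44.9 to 92.2). LLC gave too few of these cells for a comparison of genes. In B16 this joint class was not made of T cells alone by the names of the B16 annotation: beside 356 proliferating and 4 other CD8 T cells it held 25 cells named proliferating macrophages and 6 named cDC2, and 42 of its cells are not in the B16 cell table.

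Only 2 T cell receptor beta variable genes, Trbv16 and Trbv20, are in the table of counts used here. Among the 41 members with UMIs of exactly 1 of them 21 had Trbv16. Clonal expansion was not analysed here.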
